A study of Mus musculus with 4 samples.

Results

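The leukocyte marker genes are 36 genes that mark white blood cells and the antigen-presenting molecules they carry. They were chosen by name, as the genes of the deposited table whose symbol equals an entry of a list of markers of T, natural killer (NK), B and myeloid cells, Langerhans cells, neutrophils and MHC class II, and all 36 were found once each among 54446 genes with an Ensembl identifier. RNA was sequenced in 4 libraries of epithelial cells from the tongue of C57BL/6 mice, cultured in RPMI-1640 with 10% serum. The genotype was wild type for Control 1 and Control 2 and a systemic knockout of Otub2, a deubiquitinase, for the other pair, called KO 3 and KO 4 here after their titles. The labels do not give the deleted part of the gene or say whether a library came from a separate animal or culture, so p-values measure only the spread between these libraries, which may be technical.

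Values of all 4 libraries are given in the order Control 1, Control 2, KO 3 and KO 4. Otub2 had 393, 367, 272 and 495 counts (log2 fold change -0.34, SE 0.302, edgeR adjusted p = 0.485), so these gene-level counts check no deletion. The table heads the count columns of KO 3 and KO 4 with OE instead of KO, and each direction given here rests on the titles and genotype labels. The depth was 12185345, 11548186, 22719550 and 18911259 gene counts. KO 3 stood apart. Its 14 gland secretory genes summed to 410920 CPM (depth-scaled counts), against 9.47 to 29.8 CPM elsewhere, and its 10 heart muscle genes to 17638 CPM against 62.6 to 93.1 CPM. Keratinocyte markers, which define the labelled cell type, were abundant in all 4 libraries, with 10 genes summing to 55123, 49793, 27111 and 39150 CPM in Control 1, Control 2, KO 3 and KO 4. CPM values use gene counts after TMM scaling, a correction for differences in RNA makeup between libraries. TMM raised the values of KO 3 (factor 0.650, against 1.10 to 1.19 elsewhere), so for some classes levels are also given on library size alone. Where no such value is given, the level in KO 3 still depends on the scaling.

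Oral epithelium holds resident immune cells among its keratinocytes, mainly Langerhans cells and T cells, with macrophages and dendritic cells in the tissue beneath. T cells recognise antigen through a receptor that signals by the CD3 chains, B cells through surface immunoglobulin that signals by CD79A and CD79B, and macrophages are marked by the CSF1 receptor, complement C1q and lysozyme. MHC class II molecules are pairs of an alpha and a beta chain that present peptides to CD4 T cells; the invariant chain CD74 guides them through the cell. Dendritic cells, macrophages and B cells make class II genes constitutively, and other cells, keratinocytes among them, can make them after exposure to interferon gamma. The transactivator CIITA acts on these genes through proteins bound to the X and Y boxes of their promoters.

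The class II promoters are shown first because the class II genes were among the most abundant members and varied widely between libraries. RefSeq promoters (GRCm38.p6) were matched for 23 of the 36 symbols, including H2-Aa and H2-Eb1, and H2-Ab1 was among those not matched. H2-Aa lies on chromosome 17 from 34282744 to 34287823 (minus strand), H2-Eb1 from 34305867 to 34316674 (plus strand) and H2-Ab1 from 34257689 to 34269419 (plus strand), by GENCODE release M21 on GRCm38. The stretches printed are chr17:34287847-34287924 for H2-Aa on the minus strand and chr17:34305756-34305832 for H2-Eb1 on the plus strand. Beside them stand H2-Ob at chr17:34238798-34238872 and H2-Eb2 at chr17:34325523-34325599, both on the plus strand, which are class II genes with almost no counts. Capitals mark GCAAC, a core of the X box, and GATTGG, the Y box, which is an inverted CCAAT.
H2-Aa: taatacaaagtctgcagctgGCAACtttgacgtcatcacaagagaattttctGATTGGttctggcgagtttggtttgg
H2-Eb1: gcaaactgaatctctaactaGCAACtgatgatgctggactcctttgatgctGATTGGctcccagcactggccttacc
H2-Ob: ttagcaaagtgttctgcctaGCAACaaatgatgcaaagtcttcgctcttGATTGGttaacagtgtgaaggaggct
H2-Eb2: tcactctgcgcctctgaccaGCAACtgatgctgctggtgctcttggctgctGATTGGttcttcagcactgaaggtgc

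In the 250 bases before the start, searched on both strands, GCAAC occurred in 29.9% and GATTGG in 14.6% of 32851 promoters. GCAAC followed on the same strand by GATTGG, with starts 25 to 40 bases apart, occurred in 79 promoters (0.24%); this window was set after the sequences were seen. The starts were 32 bases apart in H2-Aa, 31 in H2-Eb1, 29 in H2-Ob and 31 in H2-Eb2. Among the 23 matched members, 3 had the pair, namely H2-Aa, H2-Eb1 and the lysosomal glycoprotein gene Cd68. Genes with the same boxes differed widely in level per gene length. H2-Aa was at 46.3, 18.8, 11.4 and 2.60 FPKM (a count divided by gene length and library total, as deposited by the authors), H2-Ob at 0.228, 0.187, 0 and 0.0332 FPKM and H2-Eb2 at 0.253, 0.0762, 0.0590 and 0 FPKM. A match is a description of these letters only.

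The leukocyte markers were a small part of every library. All 36 together had 6825 counts in Control 1, 3391 in Control 2, 5994 in KO 3 and 2970 in KO 4. They made up 0.0560% of gene counts in Control 1 (exact binomial 95% interval 0.0547 to 0.0574%), 0.0294% in Control 2 (0.0284 to 0.0304%), 0.0264% in KO 3 (0.0257 to 0.0271%) and 0.0157% in KO 4 (0.0151 to 0.0163%). These intervals cover counting error only. The most abundant members per gene length, by the authors' FPKM averaged over the 4 libraries, were Cd74 at 32.3, Lyz2 at 28.8, H2-Eb1 at 23.1, H2-Ab1 at 20.2 and H2-Aa at 19.8. Lyz2 lay above Cd74 in each library but Control 1, and in KO 4 Cd14 (15.5 FPKM) and Cd68 (11.9 FPKM) lay above every class II gene, while the keratin Krt14 averaged 11066 FPKM. At least 10 counts were found for 34, 31, 27 and 22 members in Control 1, Control 2, KO 3 and KO 4, and under 3 counts for 1, 3, 3 and 3. Fewer cells of a type and less RNA per cell cannot be told apart in such libraries.

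**Figure D1:**
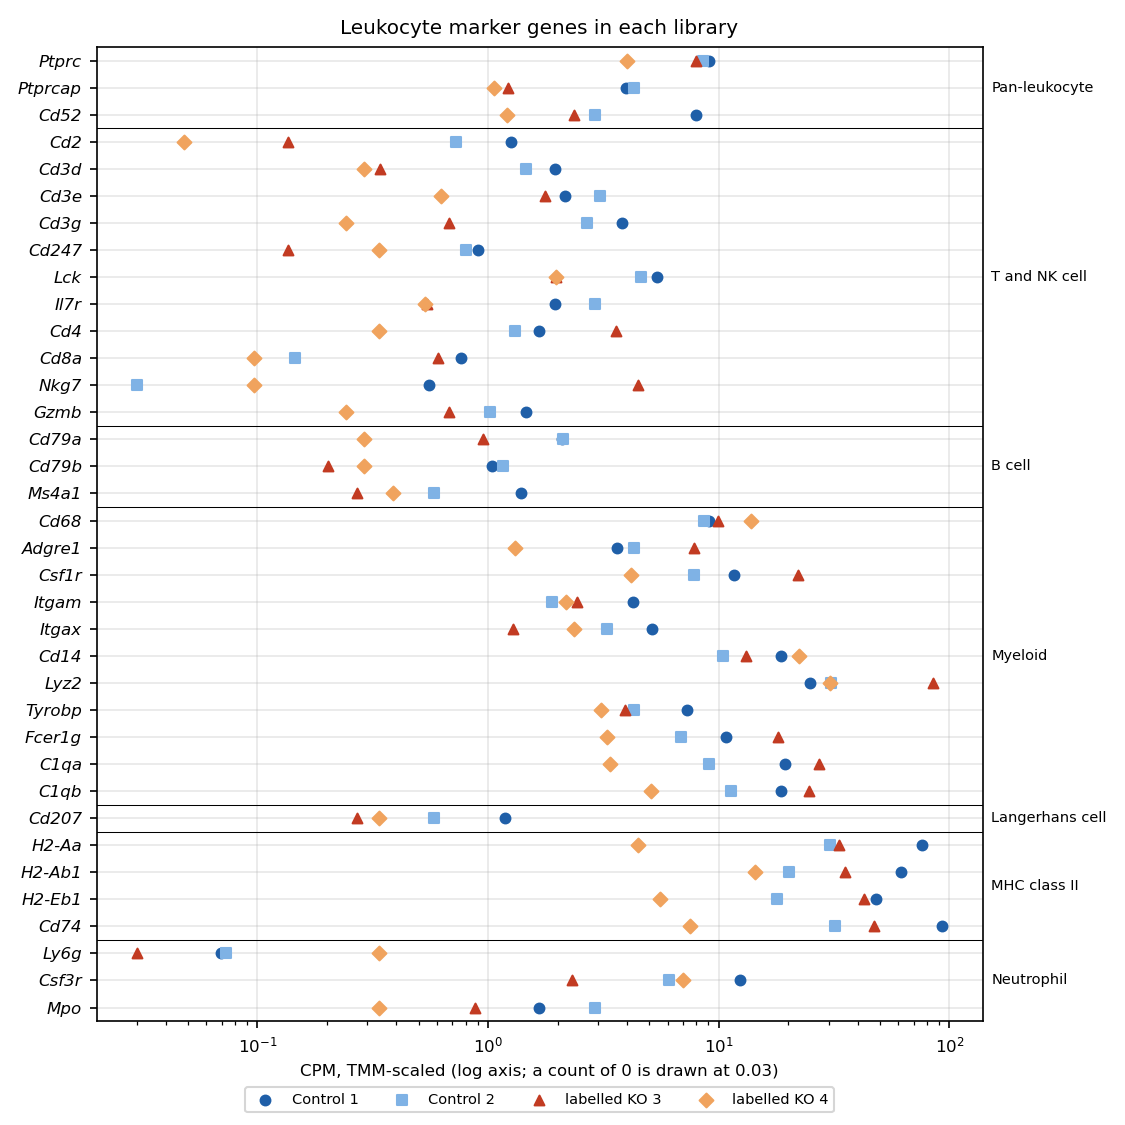
Level of each of the 36 genes in each library, as TMM-scaled CPM on a log axis, grouped by class; each symbol is 1 library. Lymphocyte genes sit mostly between 0.1 and 5 CPM with KO 3 and KO 4 to the left, and the 4 class II genes spread widely, with Control 1 highest and KO 4 lowest.

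No member passed the test between the groups. The quasi-likelihood test of edgeR called 0 of 21916 genes at an adjusted p of 0.05 (0%), and 0 of the 34 members tested, whose smallest adjusted p was 0.166. At an unadjusted p under 0.05, 11 members were lower and 0 higher, against 15.2% of all genes tested lower and 9.42% higher. Of those 11, 9 had passed the filter on low counts only through the controls, so that a lower value in KO 3 and KO 4 was built in and the count of 11 is a description only. DESeq2 called 1 of the 25 members for which it gave an adjusted p, Cd3g, as lower. Of all genes it called 1.62% lower and 4.89% higher. Cd3g too had passed the filter only through the controls, so that a lower value was built in. Voom called 0 members. With KO 3 left out edgeR called 24 members lower and 0 higher, among 5097 genes lower and 4359 higher, and with KO 4 left out 11 lower and 8 higher, among 2961 and 5243. In these fits the remaining library is taken to vary like the controls. Cd8a and Ly6g were too low to be tested.

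Abundance has to be read beside each direction, because genes of low abundance lay lower in KO 3 and KO 4 as a whole. Among 10243 genes with a mean of 0.5 to 5 CPM over the 4 libraries, with no other filter, both KO 3 and KO 4 lay below both controls in 51.2% and above both in 9.32%. Of the 21 members in this range 17 lay below, 0 above, and 4 overlapped. Among 11778 genes with a mean of at least 5 CPM, 12.2% lay below and 41.5% above, and of 13 members there 1 lay below (Ptprc), 1 above (Cd68) and 11 overlapped. With KO 3 left out, 19 of the 21 lay below, against 71.3% of all genes of that range, and with KO 4 left out 17 of 21, against 59.8%. Under upper-quartile scaling the share of all genes of at least 5 CPM turned to 31.3% below and 15.4% above, and 3 of the 13 members lay below and 0 above, with 4 below and 0 above on library size alone (20.9% and 13.1% of all genes).

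The size of the differences also changed with abundance. In each range of mean CPM the ratio of the group means was taken for all genes and for the members. At 0.5 to 1 CPM the median log2 ratio was -0.99 over 4383 genes and -1.72 over 6 members. At 1 to 2 CPM it was -0.64 over 3067 genes and -1.84 over 8 members, and at 2 to 5 CPM -0.02 over 2793 genes and -1.21 over 7 members. At 5 to 10 CPM it was 0.48 over 1890 genes and -0.55 over 3 members. At 10 to 50 CPM, where the class II genes and most abundant myeloid genes lie, it was 0.45 over 6040 genes and 0.05 over 10 members. The median of the members was below that of all genes in each of these ranges, and whether such a list stands apart was not tested.

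**Figure D2:**
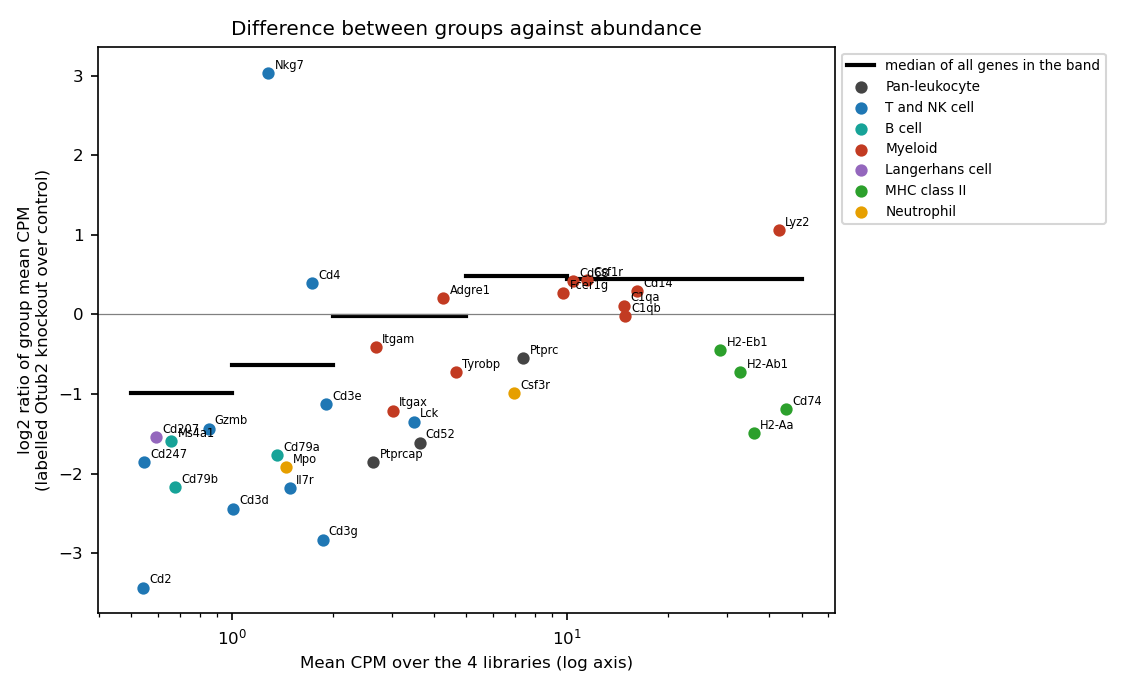
Log2 ratio of the mean CPM of KO 3 and KO 4 over that of the controls (vertical axis) against mean CPM over the 4 libraries (log axis), for the 34 members of at least 0.5 CPM; black bars mark the median of all genes in each range. Most lymphocyte genes lie below the bars, most abundant myeloid genes lie near them, and the 4 class II genes lie below the bar at 0.45.

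The pan-leukocyte genes were lower in KO 3 and KO 4 than in both controls, by amounts that did not pass the test. Ptprc, which encodes the CD45 phosphatase of all nucleated blood cells, had 130, 117, 118 and 83 counts. On the CPM scale these were 9.04 and 8.52 against 7.99 and 4.01, a log2 fold change of -0.53 (SE 0.512, adjusted p = 0.520). On this scale KO 3 lay close to the controls. In the deposited FPKM, which divide by the library total, KO 3 lay with KO 4 (0.566, 0.538, 0.280 and 0.237), and the log2 fold change was -1.10 with library size alone. Ptprcap, whose product binds CD45, had 57, 59, 18 and 22 counts (log2 fold change -1.84, SE 0.469, adjusted p = 0.166). Its exons overlap those of Coro1b on the same strand and Rps6kb2 on the other, so its counts are uncertain. Cd52, a small surface glycoprotein of lymphocytes, had 115 counts in Control 1 but 40 in Control 2, 35 in KO 3 and 25 in KO 4. It varied as much between the controls (7.997 and 2.91 CPM) as between Control 2 and KO 4 (1.21 CPM). The 3 genes summed to 21, 15.7, 11.6 and 6.27 CPM, a log2 ratio of group means of -1.04, with -0.67 without KO 4 and -1.59 on library size alone. Of 15 other pan-leukocyte genes, 10 lay at 0.5 to 5 CPM, with 6 below both controls and 0 above, against 51.2% and 9.32% of all genes there. The 3 with the most counts were the actin regulator Coro1a with 251, 119, 79 and 218, the lysosomal protein gene Laptm5 with 241, 92, 71 and 102 and the lipid phosphatase gene Inpp5d with 149, 106, 127 and 82. None of the 15 passed in edgeR, and DESeq2 called 1 lower.

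Genes of the T cell receptor complex were low everywhere and lowest in KO 3 and KO 4. Cd3g had 55, 37, 10 and 5 counts, or 3.82, 2.69, 0.677 and 0.241 CPM (log2 fold change -2.83, SE 0.672, adjusted p = 0.166). Cd3d had 28, 20, 5 and 6 counts (-2.41, SE 0.481). Both signalling chains had groups that did not overlap. Cd3e, the partner chain, had 31, 42, 26 and 13 counts (-1.12, SE 0.657), and Cd247, the zeta chain, had 13 and 11 against 2 and 7. Cd3e and Cd247 also did not overlap between the groups on the CPM scale, but each rests on few counts, and exons of both overlap other genes. Of 10 T and NK cell members at 0.5 to 5 CPM, 8 lay below both controls and 0 above. The shares of all genes there were 51.2% and 9.32%. The adjusted p of Cd3g was 0.0263 with DESeq2 and 0.198 with voom. Cd3g had passed the filter only through the controls, so that a lower value in KO 3 and KO 4 was built in.

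Other T cell genes went the same way, with exceptions that sat in KO 3. Lck, the kinase that starts receptor signalling, had 78, 63, 29 and 41 counts (log2 fold change -1.33, SE 0.460). Il7r, the receptor for a survival cytokine, had 28 and 40 against 8 and 11 (-2.15, SE 0.495), and the adhesion receptor gene Cd2 had 18 and 10 against 2 and 1. None of the 3 passed the test, and no fold is given for Cd2 because 3 counts in all stand behind KO 3 and KO 4. Cd4, the coreceptor for class II, had 24, 18, 53 and 7 counts (log2 fold change 0.40, SE 1.06, and -2.10 without KO 3). Cd8a, the coreceptor for class I, had 11, 2, 9 and 2 counts in Control 1, Control 2, KO 3 and KO 4. These coreceptors did not separate the groups, and KO 3 held the highest Cd4.

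The cytotoxic genes were near the floor. Gzmb, which encodes granzyme B of cytotoxic lymphocytes, had 21, 14, 10 and 5 counts. Nkg7, a granule gene of NK and cytotoxic T cells, had 8 counts in Control 1, 0 in Control 2, 66 in KO 3 and 2 in KO 4. A count of 0 in Control 2 allows a level of up to 0.218 CPM (3 counts). Nearly all Nkg7 counts thus sat in KO 3 (4.47 CPM), and its edgeR log2 fold change was 2.99 (SE 1.88, adjusted p = 0.345). The 11 T and NK cell genes summed to 21.9, 18.7, 14.9 and 4.83 CPM. The log2 ratio of group means was -1.04, moving to -2.07 without KO 3 and to -0.45 without KO 4, and to -1.68 on library size alone.

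A wider set of 27 other T and NK cell genes was read beside these. With 3 of them under 0.5 CPM, 22 lay at 0.5 to 5 CPM, where 14 were below both controls and 0 above, against the 51.2% and 9.32% of all genes of that range. On the TMM scale the 3 with the most counts did not separate the groups. Trbc2, a constant region of the T cell receptor beta chain, was at 51.0, 38.0, 15.5 and 39.0 CPM. The scavenger receptor family gene Cd5 was at 9.18 and 9.90 against 7.17 and 9.94 CPM. Il2rg, the shared cytokine receptor chain, was at 2.36 and 1.46 against 1.96 and 4.30 CPM. Trac and Trbc1, other constant regions named after their values were seen, were far lower than Trbc2 and lay below both controls. They were at 1.67, 1.17, 0.474 and 0.869 CPM and at 2.29, 1.02, 0.744 and 0.772 CPM. None of the 23 tested genes of this set passed in edgeR, and DESeq2 called 2 lower.

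B cell genes were at the floor of these libraries, with receptor genes lower in KO 3 and KO 4. Cd79a had 30, 29, 14 and 6 counts, or 2.09, 2.11, 0.948 and 0.290 CPM (log2 fold change -1.77, SE 0.669, adjusted p = 0.197). Its partner Cd79b had 15 and 16 against 3 and 6 counts (-2.09, SE 0.459, adjusted p = 0.166). Ms4a1, which encodes the B cell surface protein CD20, had 20, 8, 4 and 8 counts. All 3 had groups that did not overlap on the CPM scale, with the sum at 4.52, 3.86, 1.42 and 0.965 CPM (log2 ratio of group means -1.81). All 3 lie at 0.5 to 5 CPM, where 51.2% of all genes lay below both controls. On library size alone the sum was 5.33, 4.59, 0.924 and 1.06 CPM, with KO 3 lowest. Of 10 other B cell genes, 7 lay at 0.5 to 5 CPM, with 2 below both controls and 0 above. All genes there had shares of 51.2% and 9.32%. The other 3 lay under 0.5 CPM, and none of the 7 genes tested passed in edgeR or DESeq2. Immunoglobulin genes did not follow Cd79a and Cd79b. Ighm, the mu heavy chain, had 20, 13, 49 and 28 counts in Control 1, Control 2, KO 3 and KO 4, and Igkc, the kappa light chain, had 2, 0, 140 and 0. Blk, a kinase of B cells, had 16, 11, 48 and 16. Jchain, which joins secreted immunoglobulins and was chosen after its values were seen, had 6, 5, 55 and 6. The secreted-antibody genes Igkc and Jchain were thus highest in KO 3, the library that also held the gland transcripts; their part in one another was not tested.

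Myeloid genes made up the larger share of the members outside class II, and as a class the 11 genes did not separate the groups. Their sum was 133 CPM in Control 1 (95% Poisson interval 127 to 139), 98.5 CPM in Control 2 (93.3 to 104), 216 CPM in KO 3 (208 to 223) and 91.4 CPM in KO 4 (87.3 to 95.6). KO 3 was 2.36-fold above KO 4 and Control 1 was 1.35-fold above Control 2. This order depended on the scaling, since on library size alone the sums were 157, 117, 140 and 100 CPM, with Control 1 highest. The log2 ratio of group means was 0.41 with TMM, -0.073 with upper-quartile scaling, -0.19 on library size alone and -0.34 without KO 3. Of the 11 genes 1 lay above both controls, 2 below and 8 overlapped. At 0.5 to 5 CPM 2 of 4 lay below and 0 above, against 51.2% and 9.32% of all genes there. At 5 CPM or more 0 of 7 lay below and 1 above, against 12.2% and 41.5%.

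On the TMM scale macrophage genes were high in KO 3 and low in KO 4, with the controls between. Csf1r, the receptor that macrophages need to survive, had 168, 107, 326 and 86 counts in Control 1, Control 2, KO 3 and KO 4, or 11.7, 7.79, 22.1 and 4.15 CPM. Adgre1, which encodes the macrophage surface protein F4/80, had 52, 59, 116 and 27 counts. C1qa and C1qb, chains of the complement component that starts the classical pathway, had 278, 125, 404 and 70 and 269, 155, 363 and 105 counts. In each of these 4 genes KO 3 was the highest and KO 4 the lowest of the 4 libraries on this scale. In the deposited FPKM KO 4 was still the lowest, but Control 1 was above KO 3 for C1qa (21.3 and 16.9) and C1qb (19.7 and 14.5). Their log2 fold changes were 0.46, 0.23, 0.14 and 0.01 (SE 0.827, 0.888, 0.994 and 0.793), and each turned negative without KO 3 (-1.21, -1.57, -2.05 and -1.54) and under upper-quartile or library-size scaling. Fcer1g, an adaptor chain of Fc receptors, showed the same order in CPM with 155, 94, 266 and 68 counts, and Control 1 just above KO 3 in FPKM (14.1 and 13.2).

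Other myeloid genes had a different order. Lyz2, lysozyme of macrophages and granulocytes, had 357, 421, 1258 and 630 counts, or 24.8, 30.7, 85.1 and 30.4 CPM, so that KO 4 lay with the controls (log2 fold change 1.08, SE 0.538, and 0.15 without KO 3). Lyz2 has a close relative, Lyz1, with 2, 5, 4 and 1 counts, and the handling of shared reads is not given in the sources used here. Cd68, of lysosomes in macrophages, had 131, 119, 147 and 286 counts, or 9.11, 8.67, 9.95 and 13.8 CPM (log2 fold change 0.43, SE 0.393, adjusted p = 0.496), and -0.034 under upper-quartile scaling. Cd14, a coreceptor for bacterial lipopolysaccharide, had 267, 143, 194 and 464 counts (log2 fold change 0.30, and -0.11 without KO 4). Both Cd68 and Cd14 were highest in KO 4, where Csf1r, Adgre1 and C1q were lowest.

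The integrins and the second adaptor were higher in Control 1. Itgam, which encodes CD11b, had 61 counts in Control 1, 26 in Control 2, 36 in KO 3 and 45 in KO 4, and its log2 fold change of -0.40 became 0.31 without Control 1. Itgax, which encodes CD11c of dendritic cells, had 74, 45, 19 and 49 (5.15, 3.28, 1.29 and 2.37 CPM), and the groups did not overlap (log2 fold change -1.19, SE 0.558, adjusted p = 0.246). Tyrobp, the DAP12 adaptor of myeloid and NK receptors, had 105, 59, 58 and 64 counts. On the CPM scale KO 3 (3.93) lay just under Control 2 (4.30), a smaller gap than that between the controls (7.30 and 4.30).

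In the wider set of 23 other myeloid genes KO 3 mostly lay above KO 4, but its place beside the controls varied. They summed to 134, 100, 145 and 43.6 CPM, and to 158, 119, 94.0 and 47.8 CPM on library size alone. Of the 16 at 0.5 to 5 CPM, 9 lay below both controls and 1 above, against 51.2% and 9.32% of all genes there. Of the 6 at 5 CPM or more, 2 lay below and 0 above, against 12.2% and 41.5%. Mrc1, the mannose receptor of tissue macrophages, was at 5.35, 4.66, 34.0 and 1.54 CPM. Mpeg1, a pore-forming protein of macrophages, was at 10.5, 9.25, 14.9 and 4.20 CPM, while Ctss, a protease that processes the invariant chain, was at 29.9, 20.5, 18.1 and 7.29 CPM in Control 1, Control 2, KO 3 and KO 4. None of the 22 genes tested passed in edgeR, and DESeq2 called 1 lower. On the TMM scale 18 of the 23 were higher in KO 3 than in KO 4. Endothelial genes, which mark blood vessels, were also highest in KO 3, with 10 genes summing to 124, 107, 334 and 109 CPM. Fibroblast genes summed to 196, 210, 663 and 434 CPM and genes of red cells and platelets to 57.4, 50.5, 221 and 267 CPM, higher in both KO 3 and KO 4. The part of these cell types, or of the gland and heart transcripts, in the myeloid levels was not tested.

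**Figure D3:**
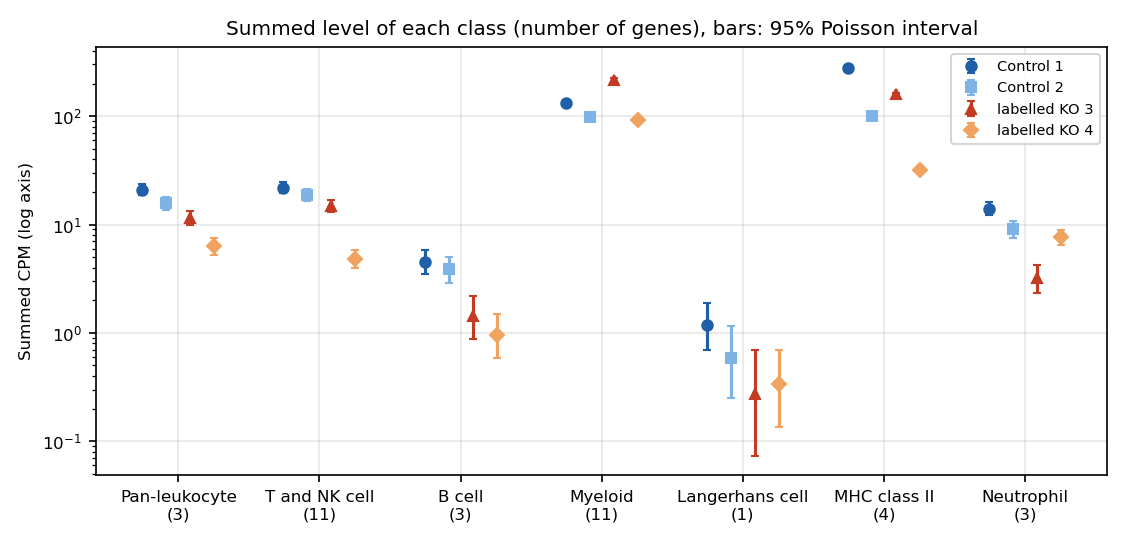
Summed CPM of each class of members in each library on a log axis, with the number of genes in brackets; bars are exact 95% Poisson intervals, which cover counting error only. On this TMM scale myeloid genes peak in KO 3 at 216 CPM, class II genes peak in Control 1 at 279 CPM, and T and B cell sums are lowest in KO 4.

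The Langerhans cell marker was barely present. Cd207, which encodes langerin of the Birbeck granule, had 17 counts in Control 1, 8 in Control 2, 4 in KO 3 and 7 in KO 4. On the CPM scale these were 1.18, 0.583, 0.271 and 0.338, with Poisson intervals of 0.251 to 1.15 in Control 2 and 0.136 to 0.696 in KO 4 that overlap. The log2 fold change of -1.49 (SE 0.553, adjusted p = 0.193) did not pass the test, and the controls themselves were 2.03-fold apart. Of 13 other dendritic cell genes, 10 lay at 0.5 to 5 CPM, with 7 below both controls and 0 above, against 51.2% and 9.32% of all genes there. None of the 12 tested passed in edgeR, and DESeq2 called 1 lower. The 3 with the most counts were Cd80, a costimulatory ligand, at 14.9, 13.7, 19.0 and 30.5 CPM, Irf8, a transcription factor of dendritic cells and macrophages, at 8.83, 5.46, 11.4 and 2.12 CPM, and Itgae, an integrin of intraepithelial T cells and some dendritic cells, at 5.35, 6.12, 1.69 and 3.19 CPM.

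The summed level of the MHC class II genes differed widely within each group. Cd74, the invariant chain, had 1340 counts in Control 1, 439 in Control 2, 699 in KO 3 and 155 in KO 4, or 93.2, 32.0, 47.3 and 7.48 CPM. H2-Aa, the alpha chain of the A molecule, was at 75.7, 30.4, 33.3 and 4.49 CPM in the same order, and H2-Ab1, its beta chain, at 61.5, 20.1, 35.2 and 14.3 CPM. H2-Eb1, the beta chain of the E molecule, had 693, 246, 633 and 115 counts, or 48.2, 17.9, 42.8 and 5.55 CPM. In all 4 genes the order on the TMM scale was Control 1, KO 3, Control 2 and KO 4, and the groups overlapped. In the deposited FPKM Control 2 lay above KO 3 for Cd74 (26.2 and 21.5), H2-Aa (18.8 and 11.4) and H2-Ab1 (14.2 and 13.8), so that for these 3 the groups no longer overlapped, while H2-Eb1 kept its order (17.5 and 23.2).

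The sum of the 4 genes was 279 CPM in Control 1 (95% Poisson interval 270 to 287), 100 CPM in Control 2 (95.2 to 106), 159 CPM in KO 3 (152 to 165) and 31.9 CPM in KO 4 (29.5 to 34.4). Control 1 was 2.77-fold above Control 2 and KO 3 4.98-fold above KO 4. The log2 ratio of group means was -0.99. On library size alone the sums were 329, 119, 103 and 34.9 CPM, with KO 3 and KO 4 below both controls and a log2 ratio of -1.70. With TMM, leaving out Control 1 moved it to -0.076, leaving out KO 4 to -0.26 and leaving out KO 3 to -2.57, so each of these libraries decides its size. The edgeR log2 fold changes were -1.16 for Cd74, -1.46 for H2-Aa, -0.70 for H2-Ab1 and -0.42 for H2-Eb1 (SE 0.958, 0.985, 0.691 and 1.001), with a smallest adjusted p of 0.372. Without Control 1 the value was 0.33 for H2-Ab1 and 0.46 for H2-Eb1. The 95% interval for H2-Aa, -3.97 to 1.04, shows how little 2 libraries per group limit this difference.

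The 4 class II genes did not keep 1 ratio in all libraries. H2-Ab1 gave 22.1%, 20.02% and 22.2% of the class II counts in Control 1, Control 2 and KO 3, and 45.0% in KO 4 (exact interval 41.2 to 48.9%, 297 of 660 counts). H2-Aa gave 27.2%, 30.3%, 20.99% and 14.1% (11.5 to 16.98% in KO 4). The chains of the A molecule thus had near-equal counts in KO 3 (492 for H2-Aa and 520 for H2-Ab1) and a gap of 93 to 297 in KO 4. H2-Eb1 took 27.0% in KO 3 (25.2 to 28.9%), above the 17.3%, 17.8% and 17.4% of Control 1, Control 2 and KO 4. These shares come from single libraries and have no replicate check.

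**Figure D4:**
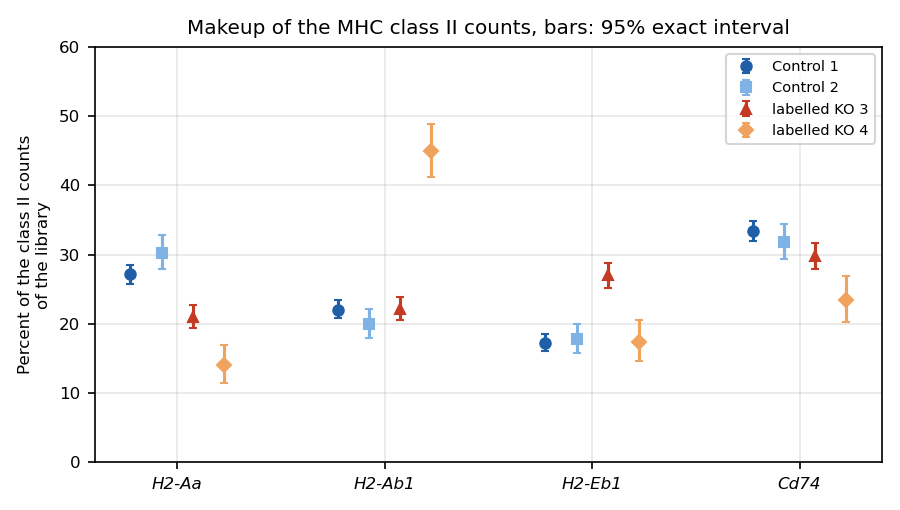
Share of each of the 4 class II genes in the class II counts of its library, in percent, with exact 95% binomial intervals. In KO 4 H2-Ab1 takes 45.0% and H2-Aa 14.1%, whereas the other 3 libraries put H2-Ab1 between 20.02% and 22.2%.

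Other genes of the class II pathway fell into a low and a high block. Of 18 genes, 4 were under 0.5 CPM, among them H2-Ob and H2-Eb2, whose promoters are printed above. The 4 at 0.5 to 5 CPM all lay below both controls, against 51.2% of all genes there. They include Ciita, the transactivator, with 69, 68, 40 and 16 counts, and H2-DMb1, a chain of the peptide-exchange molecule, with 93, 42, 29 and 21. H2-DMa, the partner chain, had 121, 54, 51 and 22 counts. Of the 10 genes of at least 5 CPM, 6 lay above both controls and 0 below, against 41.5% and 12.2% of all genes there. The 6, and the 3 genes before them, are named after their values were seen. They are Rfx5 and Rfxank, subunits of the complex that binds the X box, Nfyb and Nfyc, subunits of the complex NF-Y that binds the Y box, Ctsl and Ifi30. The lysosomal protease gene Ctsl was at 138, 121, 255 and 390 CPM and the lysosomal reductase gene Ifi30 at 45.0, 37.0, 71.9 and 47.8 CPM, both above the controls in KO 3 and KO 4. Creb1, whose product can bind the X2 box, was at 47.6, 58.5, 57.2 and 65.8 CPM, with overlap. None of the 15 tested genes passed in edgeR, and DESeq2 called 1 higher.

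Genes of interferon gamma signalling and response were read because they share the inducer of class II. Ifng itself had 0, 0, 1 and 0 counts in Control 1, Control 2, KO 3 and KO 4. The 3 most counted genes of this set, the kinases Jak1 and Jak2 and the receptor chain Ifngr1, were at 101, 122, 167 and 149 CPM, at 37.7, 46.2, 41.5 and 51.8 CPM and at 20.9, 16.1, 40.2 and 34.1 CPM. Further genes named after their values were seen had the library order of class II at its lower end. The guanylate-binding protein gene Gbp2 had 360, 98, 308 and 27 counts, and the chemokine genes Cxcl9 and Cxcl10 had 194, 54, 198 and 4 and 108, 29, 136 and 5. KO 4 was the lowest in each of these 3 and Control 2 the next, as for class II, while Control 1 and KO 3 were high. Of the 15 genes tested none passed in edgeR or DESeq2, and the link between the interferon genes and class II was not tested.

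The summed neutrophil markers lay lower in KO 3 and KO 4, but of the genes tested Mpo had groups that did not overlap and Csf3r had groups that did. Csf3r, the receptor for granulocyte colony-stimulating factor, had 177, 84, 34 and 145 counts, or 12.3, 6.12, 2.30 and 6.998 CPM. Mpo, the myeloperoxidase of azurophil granules, had 24, 40, 13 and 7 counts (log2 fold change -1.91, SE 0.665, adjusted p = 0.184). Ly6g, the marker used to define mouse neutrophils, had 1, 1, 0 and 7 counts, and other members of its gene family could share reads with it. The 3 genes summed to 14.0, 9.10, 3.18 and 7.67 CPM, with a log2 ratio of group means of -1.09 that moved to -0.59 without KO 3 and to -1.86 without KO 4. The calprotectin genes S100a8 and S100a9, which keratinocytes express as well, were at 755 and 702 against 197 and 291 CPM and at 1249 and 875 against 307 and 613 CPM (log2 fold changes -1.56 and -1.20, SE 0.329 and 0.453, adjusted p = 0.166 and 0.197). The gelatinase gene Mmp9 was at 17.2 and 33.1 against 33.3 and 119 CPM. Of 14 other neutrophil genes, these among them, 7 lay at 0.5 to 5 CPM, with 6 below both controls and 0 above. The shares of all genes there were 51.2% and 9.32%. At 5 CPM or more 2 of 5 lay below and 1 above, against 12.2% and 41.5% of all genes. None of the 11 tested passed in edgeR, and DESeq2 called 2 lower.

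Mast cell and blood genes give the remaining blood lineages. Of 10 mast cell genes, 5 lay at 0.5 to 5 CPM, where 4 were below both controls, against 51.2% of all genes there, and the 2 at 5 CPM or more, Kit and Hdc, overlapped. Kit, also a receptor of other cells, was at 5.70, 4.59, 26.2 and 2.75 CPM. Hdc, which makes histamine, had 152, 71, 46 and 118 counts and the transcription factor gene Gata2 had 66, 45, 56 and 85. Of the genes of red cells and platelets, 4 of 4 at 0.5 to 5 CPM and 3 of 4 at 5 CPM or more lay above both controls, against 9.32% and 41.5% of all genes. The exception was the platelet chemokine gene Ppbp, with 126, 244, 71 and 3784 counts. Hbb-bs, a beta globin, was at 13.9 and 9.98 against 93.7 and 25.8 CPM and Hba-a1, an alpha globin, at 16.6 and 7.65 against 64.8 and 25.7 CPM (log2 fold changes 2.35 and 1.92, SE 0.677 and 0.626, adjusted p = 0.167 and 0.176). Globin transcripts thus stood higher in KO 3 and KO 4 beside lymphocyte genes that stood lower, and none of these differences passed the edgeR test. DESeq2 called 3 of the red cell and platelet genes higher and 1 mast cell gene lower.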

How the data were processed

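The authors deposited 1 table of raw read counts per gene and FPKM values in 4 libraries, per the file headers. HISAT2, DESeq and the human build GRCh38 appear in the submitters' processing notes without role or version, although the gene identifiers are mouse Ensembl identifiers. Of 54446 identifiers, 54409 were found in GENCODE M21. The counting tool, its strand setting and the treatment of shared reads were not given in the sources used here. Exons of 9 members (Ptprcap, Cd52, Cd3e, Cd247, Lck, Csf1r, Itgam, Cd74 and Mpo) overlap those of another gene, so their counts are uncertain. Rows without a gene (14785) held 0.914% to 2.84% of counts and were left out. Raw counts were tested with the quasi-likelihood test of edgeR 4.0.16 in R 4.3.3 over all 21916 genes kept by filterByExpr (about 0.643 CPM in 2 libraries), with TMM factors of 1.18, 1.19, 0.650 and 1.10 for Control 1, Control 2, KO 3 and KO 4, and Benjamini-Hochberg adjustment at 0.05. Of the members 34 passed, 21 in all 4 libraries and 11 only through both controls. DESeq2 1.42.0, voom of limma 3.58.1, other scalings, no filter and leaving out each library were alternatives. The fit was tested on simulated data.

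All fold changes are KO 3 and KO 4 over the controls. The deposited FPKM values of the authors divide by each library's total count, which in KO 3 includes the gland transcripts, and were used to compare levels between genes and as values on library size alone. The members, the lists and the tests were chosen with earlier results of these data known. All members were named, and of each other leukocyte, class II, interferon, mast cell and blood list the 3 genes with the most counts. Other genes were named after their values were seen. Counts of members below or above both controls under other scalings and without each library were added after seeing the data. The libraries of a group differed by more than sampling noise. Chi-square over its degrees of freedom was 14.5 between the controls and 737 between KO 3 and KO 4. Pairs of a control and a KO library had 109 to 522, so KO 3 and KO 4 were the least alike pair. The number of unused columns of per-sample values was 0.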

Additional observations from a re-analysis of the deposited data

How the results depend on the processing

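No paired analysis was possible because the labels number the groups 1 and 2 and 3 and 4, with no shared number. With DESeq2, 258 genes were called lower and 780 higher, and 1 member was called lower. This member, Cd3g, had passed the filter only through the controls. With library size alone edgeR called 1433 genes lower and 37 higher and 7 members lower (Cd2, Cd3d, Cd3g, Il7r, Cd79a, Cd79b and Mpo, which all passed the filter only through the controls, so that a lower value was built in), and with no filter it called 3 and 6 genes. Leaving out 1 library gave 0 to 5097 genes lower, 0 to 5243 higher, 0 to 24 members lower and 0 to 8 higher; the high ends came without KO 3 or KO 4, where the remaining library of the group is taken to vary like the controls. The log2 fold change turned negative with voom for Cd4 (-0.44), Adgre1 (-0.35), Csf1r (-0.083), Fcer1g (-0.24), C1qa (-0.58) and C1qb (-0.47). With upper-quartile scaling it was -0.079, -0.25, -0.029, -0.19, -0.35 and -0.48 for these 6, -0.034 for Cd68 and -0.16 for Cd14, and with library size alone -0.34, -0.49, -0.26, -0.42, -0.62 and -0.69 for these 6 and -0.047 for Cd14. Over the fits without 1 library it ran from -2.10 to 1.29 for Cd4, -1.57 to 1.02 for Adgre1, -1.21 to 1.21 for Csf1r, -1.40 to 1.06 for Fcer1g, -2.05 to 0.97 for C1qa, -1.54 to 0.74 for C1qb, -0.11 to 0.79 for Cd14, -0.84 to 0.31 for Itgam, -1.49 to 0.33 for H2-Ab1 and -2.55 to 0.46 for H2-Eb1. The summed log2 ratio moved beyond the spread of replicates with library size alone for pan-leukocyte (-1.59) and B cell genes (-2.32). For B cell genes it also did so with upper-quartile scaling (-2.28). Without KO 3 it moved that far for pan-leukocyte, T and NK cell, B cell, myeloid and class II genes. It did so for the Langerhans cell gene without Control 1 and for neutrophil genes without KO 4. Without 1 library it ran from -1.55 to -0.67 for pan-leukocyte, -2.07 to -0.45 for T and NK cell, -2.12 to -1.56 for B cell, -0.34 to 0.90 for myeloid, -1.96 to -0.94 for Langerhans cell, -2.57 to -0.076 for class II and -1.86 to -0.59 for neutrophil genes. The 17 members of 0.5 to 5 CPM below both controls became 16 to 18 under 5 other scalings and 17 to 19 without 1 library. The 1 member of at least 5 CPM above both controls became 2 with DESeq2 size factors or with rows without a gene kept, 0 with the other 3 scalings, and 2 to 6 without 1 library. Counts of 3 or fewer limit Cd2, Cd8a, Nkg7 and Ly6g most, and in KO 3 also Cd247 (2 counts) and Cd79b (3 counts).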
